A study of Mus musculus with 4 samples.

Results

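The Myc family and its dimer partners were followed in single-cell transcriptomes of the E15.5 mouse rostral neocortex. The members were the 9 rows of the deposited matrices with the symbols Myc, Mycn, Mycl, Max, Mxd1, Mxd3, Mxd4, Mnt and Mxi1, out of 32285 listed genes. They were chosen by name and not by their values, and all 9 passed the filter on low counts in every comparison. Both groups had 2 libraries of the same tissue, made with the 10x Genomics 3′ chemistry, which tags the 3′ ends of transcripts. i4F-Nes embryos had the genotype Nestin-Cre;i4F;ROSA-STOP-rtTA, in which Nestin-Cre, active in neural progenitors, removes the stop before the rtTA transactivator, so that doxycycline turns on the i4F cassette with the reprogramming factors Pou5f1, Sox2, Klf4 and Myc. CTR littermates had the genotype i4F;ROSA-STOP-rtTA and so lacked the Cre. Pregnant females of both groups had doxycycline in their water at 0.2 mg/ml between E10.5 and E14.5, a span of 4 days, and tissue was taken at E15.5, after the drug had ended. The labels do not give the number of embryos behind a library. In comparisons of genotypes the p-values rest on the spread between libraries. In comparisons between gates, also for the i4F-Nes response, the library was fitted as a block. Their p-values rest on the spread left between gates within libraries, pooled over all gates of the fit. Both spreads may be technical. UMIs (unique molecular identifiers, 1 per captured transcript) of the Myc transgene and of the endogenous Myc gene cannot be told apart in these counts.

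Myc, Mycn and Mycl are transcription factors of the basic helix-loop-helix leucine zipper class. They bind the E-box CACGTG only as dimers with Max, and such dimers activate genes of ribosome production, metabolism and the cell cycle. Mxd1, Mxd3, Mxd4, Mxi1 and Mnt compete for the same partner and the same DNA letters, and their dimers with Max recruit Sin3 and histone deacetylases and repress. In the developing brain Mycn is known for its role in the expansion of progenitors, and most Mxd genes are known to rise as cells leave the cell cycle, with Mxd3 as the member known from cycling cells.

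Of the 9 genes, 8 had a promoter window in the RefSeq table of mouse build GRCm38.p6, which covers 250 bases before to 50 after a transcription start, and Mxi1 had 3 such windows. Myc had none. The windows were searched on both strands for CACGTG, which is its own reverse complement, for TTTGGCGC, a motif of the cell-cycle E2F factors, and for TTTGAA, the core of the cell-cycle homology region. CACGTG was found in Mxd4, Mnt and Max, 219, 123 and 3 bases before the start, and 8.09% of the 27025 genes with a window hold it. TTTGGCGC was found only in Mycn among the windows of the members, in 2 copies 183 and 168 bases before the start, and 0.585% of genes hold it. TTTGAA was found in Mycn on the reverse strand, 14 bases before the start, and 20.2% of genes hold it. Starts here are those of RefSeq. The GENCODE span of Mycn given below begins upstream of its RefSeq start and takes in the TTTGAA match. No matches overlapped. The windows of Mxd4, Mnt and Max are shown because they hold the letters that dimers of these same proteins bind. That of Mycn, with the E2F letters, is shown because Mycn passed the test as lower in both kinds of reprogrammed cells described below. Mycl and Mxd3 had negative fold changes there too, without passing in both. The 4 windows run 5′ to 3′ on the gene's strand, with CACGTG in capitals in the first 3 and TTTGGCGC in the last. A match describes the sequence and is not evidence of binding. They lie at chr5:34187661-34187960 on the minus strand (Mxd4), chr11:74830674-74830973 on the plus strand (Mnt), chr12:76962199-76962498 on the minus strand (Max) and chr12:12941787-12942086 on the minus strand (Mycn).
Mxd4: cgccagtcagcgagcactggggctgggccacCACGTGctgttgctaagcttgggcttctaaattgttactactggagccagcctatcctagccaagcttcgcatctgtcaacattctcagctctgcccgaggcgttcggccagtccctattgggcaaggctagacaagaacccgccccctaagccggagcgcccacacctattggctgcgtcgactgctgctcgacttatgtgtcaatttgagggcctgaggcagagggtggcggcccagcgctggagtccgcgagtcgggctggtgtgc
Mnt: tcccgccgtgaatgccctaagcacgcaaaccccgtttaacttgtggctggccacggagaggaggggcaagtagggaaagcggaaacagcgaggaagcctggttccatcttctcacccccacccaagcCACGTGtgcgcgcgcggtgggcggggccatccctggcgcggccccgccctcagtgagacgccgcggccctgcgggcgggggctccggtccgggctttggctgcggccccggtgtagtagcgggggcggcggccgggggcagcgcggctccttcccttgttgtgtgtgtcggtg
Max: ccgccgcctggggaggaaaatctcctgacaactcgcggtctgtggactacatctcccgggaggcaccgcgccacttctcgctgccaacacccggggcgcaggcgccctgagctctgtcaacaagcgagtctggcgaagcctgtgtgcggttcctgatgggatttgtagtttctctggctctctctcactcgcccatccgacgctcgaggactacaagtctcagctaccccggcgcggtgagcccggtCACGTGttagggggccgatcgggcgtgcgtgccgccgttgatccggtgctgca
Mycn: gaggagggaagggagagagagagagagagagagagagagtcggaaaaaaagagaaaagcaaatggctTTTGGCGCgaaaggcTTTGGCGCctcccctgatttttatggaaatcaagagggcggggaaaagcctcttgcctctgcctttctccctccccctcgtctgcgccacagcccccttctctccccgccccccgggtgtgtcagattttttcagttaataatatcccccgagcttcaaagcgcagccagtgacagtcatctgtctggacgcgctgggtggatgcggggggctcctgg

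In GENCODE M21 on GRCm38 the members are protein-coding genes on 8 chromosomes. Myc (ENSMUSG00000022346) spans chr15:61985391-61990374 on the plus strand and Mycn (ENSMUSG00000037169) spans chr12:12936093-12941914 on the minus strand. Mxd3 (ENSMUSG00000021485) spans chr13:55325168-55329823 on the minus strand and Mxd4 (ENSMUSG00000037235) spans chr5:34173883-34187720 on the minus strand. Max overlaps Gm47218 and Mxd1 overlaps Gm44292 on the same strand, so some of their reads may have been shared or dropped in counting.

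After filtering, 7498 and 6407 cells remained in i4F-Nes and 6046 and 6690 in CTR. The median cell had 15162 and 11320 UMIs in i4F-Nes and 15132 and 11620 UMIs in CTR. Replicate 1 was the deeper library in both groups. Over all kept cells, 8 of 9 members were higher in i4F-Nes replicate 1 than in replicate 2, and 9 of 9 in CTR. In the reprogrammed progenitor gate described below, 4 of 9 were. The share over all genes was not counted, so these counts set no member apart, and a link with depth was not tested. CTR replicate 1 was also the library with Y-linked transcripts (Ddx3y at 0.871 and 0.102 CPM, UMIs scaled to a common library total, in the i4F-Nes libraries, against 41.2 and 0.0489 CPM in CTR). The X-linked Xist was nearly absent from it, at 848 and 1050 CPM in i4F-Nes and 0.0103 and 1160 CPM in CTR. Libraries shared 8 to 19 barcodes in any pair, at most 0.314% of the smaller one.

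Cells were sorted into gates by UMIs of marker genes that include no member. Reprogrammed cells carried at least 3 of the 8 genes Krt8, Crabp2, Eya2, Lgals7, Cytl1, Cd109, Anxa1 and Lbhd2, a list chosen on these libraries. Those with Cytl1, Cd109 or Anxa1 and little Ebf1, Ebf2 or Ebf3 formed the progenitor part (392 and 363 i4F-Nes cells) and those with the reverse the neuronal part (180 and 224 i4F-Nes cells). An undecided part, with both sets of genes or little of either (154 and 95 i4F-Nes cells), entered no comparison between gates. In CTR 1 cell entered any reprogrammed gate. The radial glia gate needed at least 4 of 8 radial glia genes and took in 839 and 476 cells of the i4F-Nes libraries and 689 and 416 of the CTR libraries. The intermediate progenitor gate rested on Eomes (538 and 243 cells in i4F-Nes, 512 and 309 in CTR) and the excitatory neuron gate on Neurod2 and Neurod6 (5046 and 3677 cells in i4F-Nes, 4368 and 4971 in CTR). The labels name the cells cortical neurons, yet the excitatory gate held 67.3% and 57.4% of i4F-Nes cells and 72.2% and 74.3% of CTR cells, with progenitors beside it. Marker genes outside the gate rules separated radial glia from excitatory neurons. All 6 of Fabp7, Sox2 (itself in the cassette), Vim, Nes, Ptprz1 and Ttyh1 were present and summed to 9489 and 9219 CPM in i4F-Nes and 8538 and 10725 CPM in CTR radial glia, against 905 to 1053 CPM in the excitatory gate. The same 6 summed to 1964 and 2765 CPM in the reprogrammed progenitor gate, nearer to the 2102 to 2236 CPM of intermediate progenitors than to radial glia. All 6 of Tubb3, Dcx, Stmn2, Mapt, Gap43 and Nsg2 summed to 213 to 522 CPM in radial glia and 5271 to 6429 CPM in the excitatory gate. The reprogrammed neuronal gate had 7267 and 8392 CPM of them, above the excitatory gate. Cells of the reprogrammed progenitor gate were the deepest, with medians of 35838 and 26559 UMIs against 15065 and 13846 in radial glia of the same libraries. Levels below are TMM-scaled CPM of UMIs summed per gate and library.

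**Figure D1:**
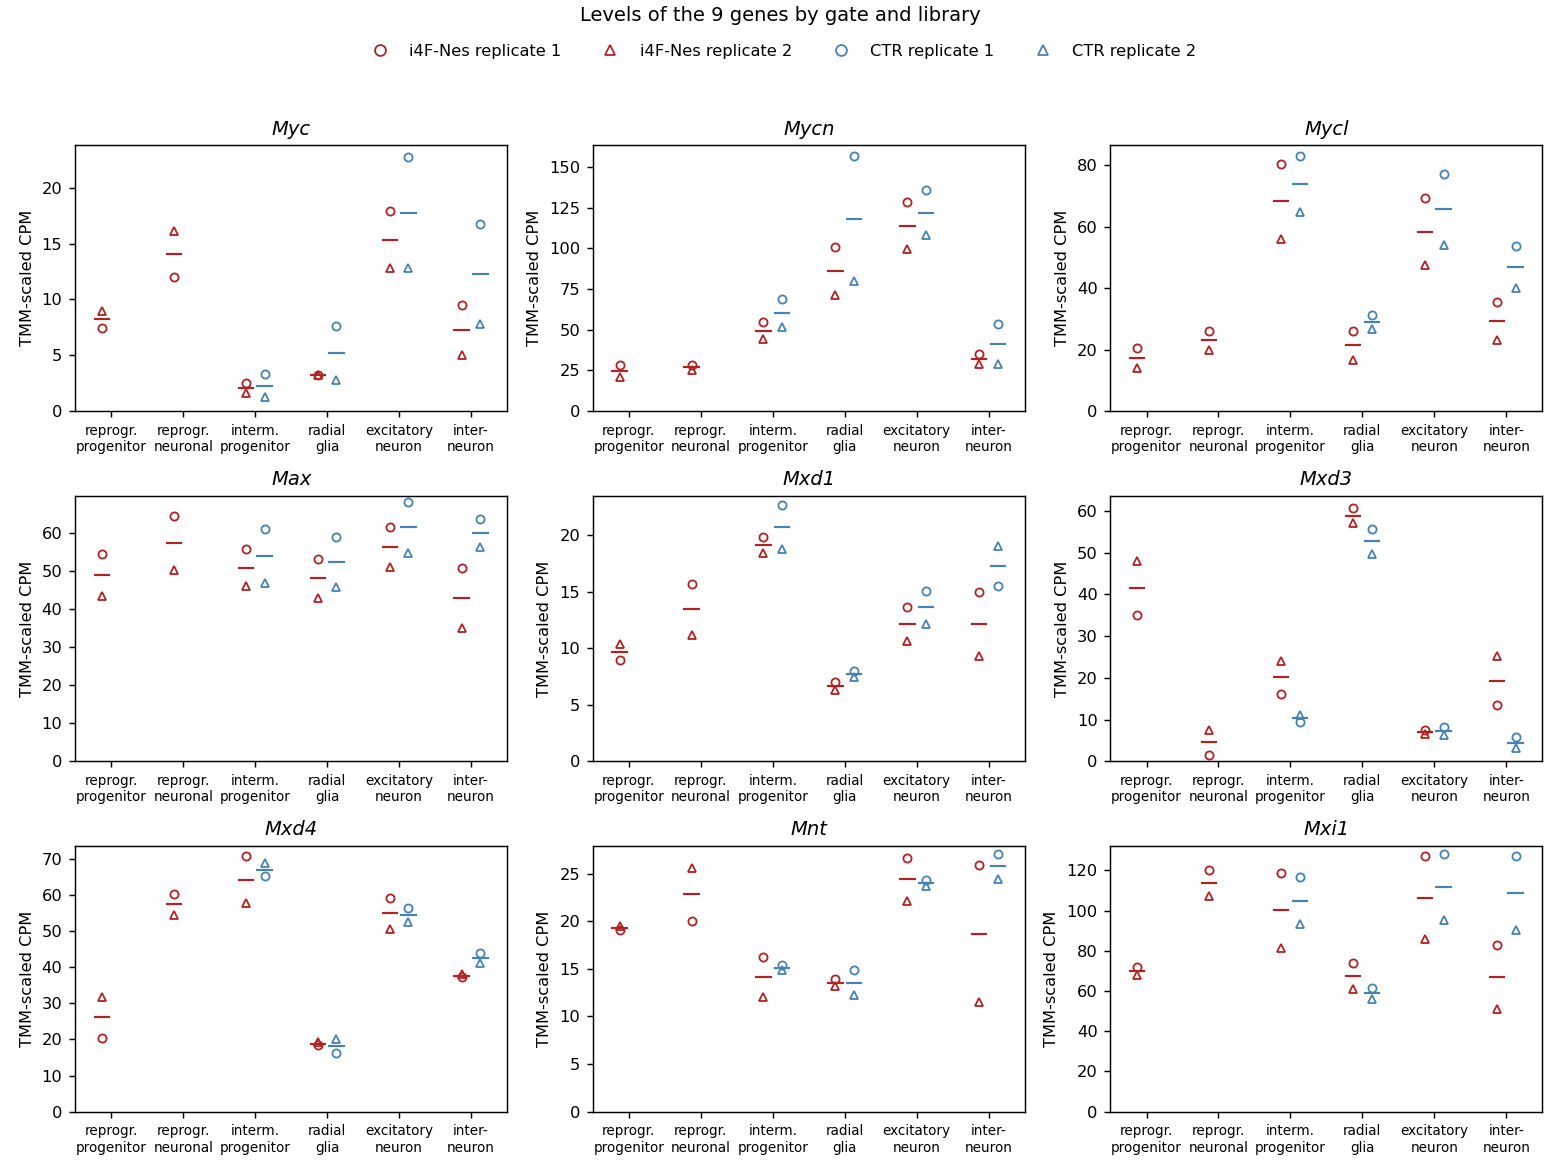
Level of each member (y axis, TMM-scaled CPM, from 0) by gate (x axis), with 1 point per library and a bar at the mean of a group's 2 libraries; i4F-Nes is red and CTR blue. Mxd3 stands at 49.7 to 60.7 CPM in the radial glia gate and at 6.28 to 8.28 CPM in the excitatory neuron gate, while Mycn is at 20.7 to 28.4 CPM in both reprogrammed gates and at 71.3 to 157 CPM in both of their counterparts.

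Radial glia, the dividing stem cells of the cortex, held less Myc, Mycl, Mxd1, Mxd4, Mnt and Mxi1 than excitatory neurons and far more Mxd3. Every one of the 9 members passed the test between these gates, 1 higher and 8 lower. The test was edgeR's quasi-likelihood F-test with Benjamini-Hochberg adjustment over 16621 genes, and at a threshold of 0.05 it called 68.8% of all genes, so a call by itself sets no member apart. Of all genes 34.4% were called higher and 34.4% lower. Scaling by library totals in place of TMM shifted the median of all genes by 0.14 on the log2 scale in this comparison, and fold changes here are on the TMM scale.

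Radial glia held Myc at 3.19 and 3.22 CPM in i4F-Nes and 7.58 and 2.76 CPM in CTR, against 17.9 and 12.8 CPM in i4F-Nes and 22.7 and 12.8 CPM in CTR excitatory neurons. The ranges of the gates did not overlap, and CTR replicate 1 was the highest library in both. The log2 fold change was −2.04 ± 0.18 (SE, n = 4 libraries; edgeR adjusted p = 7.12e-10), a level 4.10-fold lower in radial glia. The radial glia value rested on 42 and 21 UMIs in i4F-Nes and 97 and 16 UMIs in CTR. Mycl, the family member named for lung cancer, was at 16.7 to 31.3 CPM in radial glia and 47.5 to 77.1 CPM in excitatory neurons (−1.31 ± 0.08, edgeR adjusted p = 3.78e-12), without overlap. Mycn was at 71.3 to 157 CPM in radial glia and 99.4 to 136 CPM in excitatory neurons, and these ranges overlapped. Its fold change of −0.26 ± 0.10 had an edgeR adjusted p of 0.0284, and the call was lost in 5 of 11 alternatives. Among them were DESeq2 (adjusted p = 0.146), library totals (−0.11, edgeR adjusted p = 0.327) and no library block (−0.22, edgeR adjusted p = 0.419). The fold change was −0.29 without i4F-Nes replicate 2 and −0.19 without CTR replicate 2.

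Max, the shared partner, was at 43.1 to 59.1 CPM in radial glia and 51.0 to 68.2 CPM in excitatory neurons, with overlap. Its fold change was −0.23 ± 0.07 (edgeR adjusted p = 0.00608). It was −0.08 with library totals (edgeR adjusted p = 0.298) and −0.22 without the library as a block (edgeR adjusted p = 0.191). Among the repressive partners, Mxd3 was 7.76-fold higher in radial glia (2.96 ± 0.19, edgeR adjusted p = 4.12e-10). Its radial glia levels were 60.7 and 57.1 CPM in i4F-Nes and 55.7 and 49.7 CPM in CTR, against 7.51 and 6.64 CPM in i4F-Nes and 8.28 and 6.28 CPM in CTR excitatory neurons. The other 4 repressive partners were lower in radial glia, Mxd4 by the widest margin (−1.57 ± 0.12, adjusted p = 1.26e-10). Its levels were 16.3 to 20.03 CPM in radial glia and 50.4 to 59.2 CPM in excitatory neurons. Mxd1 (−0.85 ± 0.21), Mnt (−0.83 ± 0.13) and Mxi1 (−0.78 ± 0.11) differed by smaller amounts, and their library ranges did not overlap either.

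Intermediate progenitors, the Eomes-positive daughters of radial glia, held less Mxd3, Mycn and Myc and more Mxd4, Mycl, Mxd1 and Mxi1 than radial glia. In this comparison edgeR's test called 45.7% of genes and 7 of the 9 members, 4 higher and 3 lower, where 19.2% of all genes were called higher and 26.5% lower. Mxd3 was at 16.1 and 24.2 CPM in i4F-Nes and 9.53 and 11.1 CPM in CTR intermediate progenitors, 4.01-fold lower than in radial glia (edgeR adjusted p = 8.12e-07). Mxd4 was at 57.7 to 70.7 CPM, 3.59-fold higher than in radial glia (1.84 ± 0.13, edgeR adjusted p = 1.63e-10). Mycl, at 56.0 to 83.0 CPM, was 2.85-fold higher (1.51 ± 0.09) and Mxd1, at 18.4 to 22.7 CPM, 2.79-fold higher (1.48 ± 0.22). Mxi1 was also higher (0.70 ± 0.11). Mycn was at 44.5 to 69.2 CPM, below all 4 radial glia libraries (−0.87 ± 0.11, edgeR adjusted p = 9.53e-07). Myc was at 1.24 to 3.29 CPM and overlapped with radial glia. Its fold change of −0.85 ± 0.26 passed (edgeR adjusted p = 0.00924), and 2 of 11 alternatives lost the call. Without the library as a block it was −0.84 (edgeR adjusted p = 0.110), and without CTR replicate 1 it was also −0.84. Max (0.06 ± 0.08) and Mnt (0.12 ± 0.15) did not pass.

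Within the radial glia gate, Mxd3 was found mainly in cells with mitotic transcripts. Cells with at least 4 UMIs of Mki67, Top2a, Cenpf and Ube2c made up 57.7% and 60.3% of the gate in i4F-Nes and 59.7% and 60.6% in CTR. Mitotic cells held Mxd3 at 89.4 and 80.7 CPM in i4F-Nes and 77.7 and 70.0 CPM in CTR, against 4.19 and 1.48 CPM in i4F-Nes and 4.29 and 3.26 CPM in CTR for the other cells of the gate. The lower values rested on 3 to 19 UMIs. The mitotic cells were 22.50-fold higher (4.49 ± 0.16, n = 4 libraries, edgeR adjusted p = 7.67e-16). Mxd4 moved the other way, at 14.7 and 12.7 CPM in i4F-Nes and 12.2 and 15.9 CPM in CTR mitotic cells, against 25.6 and 33.1 CPM in i4F-Nes and 25.3 and 28.2 CPM in CTR for the other cells (−0.99 ± 0.13, edgeR adjusted p = 4.69e-06). These were 2 of 9 members called, where edgeR's test called 25.6% of 13608 genes (14.7% higher, 10.9% lower); 57.4% of those calls were higher in mitotic cells, and 38.7% with library totals. Mycn (−0.03 ± 0.10), Mycl (−0.03 ± 0.11), Mxd1 (−0.03 ± 0.21) and Mnt (−0.02 ± 0.16) had fold changes near 0, and Myc (0.50 ± 0.26, edgeR adjusted p = 0.163), Max (−0.16 ± 0.08) and Mxi1 (−0.15 ± 0.09) did not pass. Max did pass with library totals (−0.23, adjusted p = 0.0424) and with doublets kept (−0.21, adjusted p = 0.0489). Mitotic cells were deeper than the others, with medians of 15143 to 20444 against 10914 to 14580 UMIs.

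**Figure D2:**
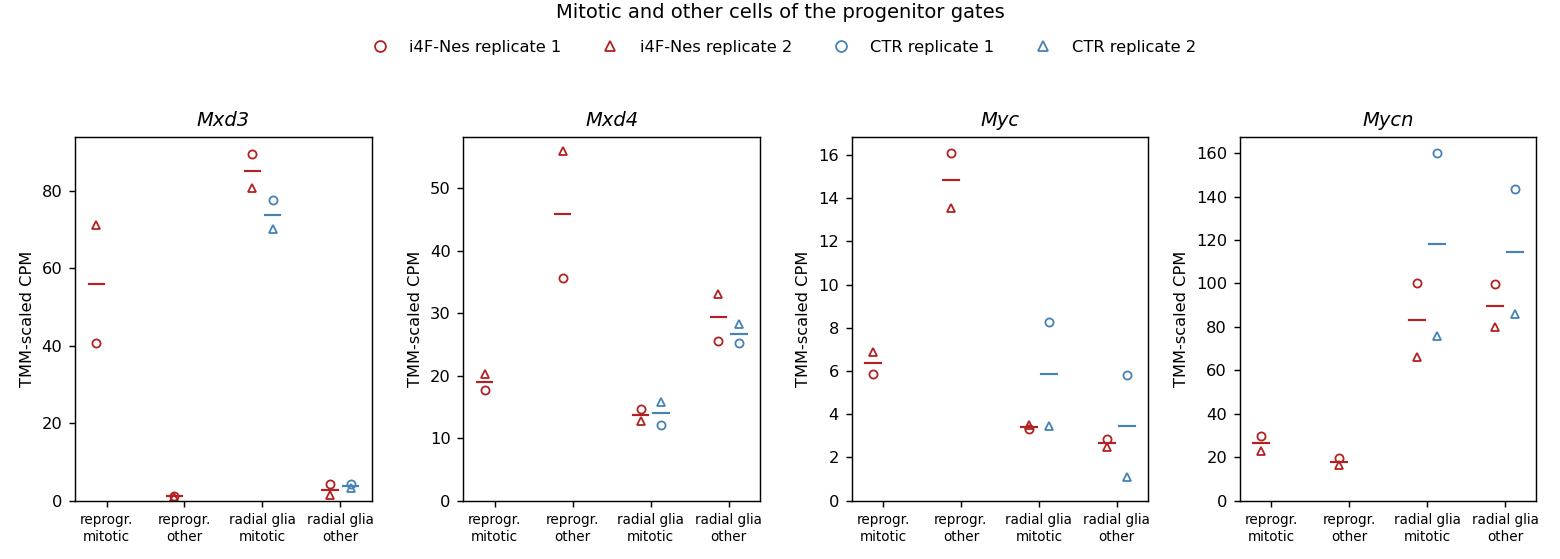
Levels of Mxd3, Mxd4, Myc and Mycn (y axes, TMM-scaled CPM, from 0) in mitotic and other cells of the reprogrammed progenitor and radial glia gates, with 1 point per library and a bar at the mean of a group. Mxd3 is at 40.7 to 89.4 CPM in mitotic cells and at 0.904 to 4.29 CPM in the other cells of both gates.

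The reprogrammed progenitor cells of i4F-Nes held less Mycn and more Myc than radial glia of the same libraries. Mycn stood at 28.3 and 20.7 CPM in reprogrammed progenitors, against 101 and 71.3 CPM in i4F-Nes radial glia. It was 3.50-fold lower (−1.81 ± 0.16, n = 2 libraries with the spread shared over all gates, edgeR adjusted p = 6.90e-09), in both libraries. Myc stood at 7.40 and 8.996 CPM in reprogrammed progenitors, against 3.19 and 3.22 CPM in i4F-Nes radial glia, from 115 and 92 UMIs against 42 and 21. It was 2.56-fold higher (1.36 ± 0.28, edgeR adjusted p = 0.000481) in both libraries, and CTR replicate 1 had 7.58 CPM in its radial glia, within the range of the reprogrammed cells. Both calls held under all 11 alternatives run for this comparison. The 6 radial glia markers were also lower in sum, at 1964 and 2765 CPM in reprogrammed progenitors against 9489 and 9219 CPM in i4F-Nes radial glia. The gate rules favour such a gap, since only the radial glia gate required radial glia genes. Of the 6 markers 0 were higher and 3 lower, with a median log2 fold change of −0.99. Their part in the level of Mycn was not tested. The test called 38.7% of genes (19.4% higher, 19.3% lower) and 4 of the 9 members.

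The other 2 calls were small. Mnt was at 19.1 and 19.5 CPM in reprogrammed progenitors, against 13.9 and 13.2 CPM in i4F-Nes radial glia (0.51 ± 0.19, edgeR adjusted p = 0.0391). Mxd4 was at 20.5 and 31.8 CPM, against 18.5 and 19.2 CPM (0.46 ± 0.18, edgeR adjusted p = 0.0489), and without i4F-Nes replicate 2 its fold change was 0.13 (adjusted p = 0.666). Without i4F-Nes replicate 1 Mnt had an adjusted p of 0.0540 and without i4F-Nes replicate 2 one of 0.0894, and both genes missed the threshold without CTR replicate 1 (edgeR adjusted p = 0.0670 for Mnt and 0.0876 for Mxd4) and with library totals (0.0553 and 0.0726). Mxd4 also missed it with DESeq2 (adjusted p = 0.0744), and in edgeR with doublets kept (adjusted p = 0.0840), with stricter gates (0.0574) and without the library as a block (0.103). Mnt missed it without that block too (edgeR adjusted p = 0.143). The fold change of Mxd4 was 0.52 without CTR replicate 2. Over 11 alternatives Mxd4 lost the call in 8 and Mnt in 5. Mxd3 was at 35.01 and 47.9 CPM, against 60.7 and 57.1 CPM, without overlap. Its −0.54 ± 0.25 did not pass (edgeR adjusted p = 0.107). Without the filter on low counts it passed (−0.54, edgeR adjusted p = 0.00812), and without i4F-Nes replicate 2 it was −0.81. The mitotic share in these cells was 79.8% and 58.1%, against 57.7% and 60.3% in i4F-Nes radial glia. Mycl (−0.31 ± 0.13, edgeR adjusted p = 0.0591) and Mxd1 (0.55 ± 0.32, edgeR adjusted p = 0.196) did not pass, and Max (0.03 ± 0.10) and Mxi1 (0.06 ± 0.16) had fold changes near 0. Mycl passed with library totals (−0.35, adjusted p = 0.0359) and with doublets kept (−0.31, adjusted p = 0.0492), and Mxd1 at a minimum of 3000 UMIs per cell (0.59, adjusted p = 0.0257).

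Immediate early genes, which respond within minutes to stimulation or to tissue dissociation, moved with Myc in these cells. Of 10 such genes, 9 rose and 0 fell in reprogrammed progenitors against radial glia, where 19.4% of all genes were called higher and 19.3% lower. Their median log2 fold change was 4.03, against −0.03 over all genes tested. All 10 were present, and their summed level was 2356 and 2389 CPM in reprogrammed progenitors and 919 and 775 CPM in i4F-Nes radial glia. Zfp36 (4.39 ± 0.27), Atf3 (4.99 ± 0.37), Egr1 (4.24 ± 0.29) and Ier2 (2.66 ± 0.16) had the smallest adjusted p. Their part in the level of Myc was not tested. In reprogrammed neuronal cells, where Myc did not pass, 6 of the 10 were higher and 1 lower than in excitatory neurons (19.1% and 20.5% of all genes). The sum was 616 and 545 CPM against 258 and 165 CPM. In radial glia against excitatory neurons 5 were higher and 4 lower, where 34.4% of all genes were called in each direction. Over all kept cells 3 were higher in i4F-Nes than in CTR, as were 2.18% of all genes. Neuronal transcripts were also higher in these cells, the 6 neuron markers summing to 1545 and 746 CPM against 324 and 356 CPM. Within the mitotic cells Myc was at 5.87 and 6.87 CPM in reprogrammed progenitors and 3.32 and 3.50 CPM in i4F-Nes radial glia. Within the other cells it was at 16.1 and 13.6 CPM against 2.87 and 2.47 CPM, the last 2 from 13 and 5 UMIs.

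The reprogrammed neuronal cells held less Mycn and less Mycl than excitatory neurons of the same libraries. Mycn stood at 28.4 and 25.4 CPM, against 128 and 99.4 CPM in i4F-Nes excitatory neurons, 4.23-fold lower (−2.08 ± 0.17, edgeR adjusted p = 2.26e-09). Mycl stood at 26.1 and 19.9 CPM, against 69.2 and 47.5 CPM, 2.53-fold lower (−1.34 ± 0.13, edgeR adjusted p = 3.10e-08). Neither gene's ranges overlapped, and both calls held under all 11 alternatives run. They were 2 of 9 members called, where the test called 39.7% of genes (19.1% higher, 20.5% lower); the higher share of those calls was 48.2%, and 62.0% with library totals, which shift the median of all genes by 0.15. Myc was at 11.996 and 16.2 CPM, against 17.9 and 12.8 CPM, with overlap (−0.12 ± 0.23, edgeR adjusted p = 0.725). Mxd3 was at 1.61 and 7.46 CPM, against 7.51 and 6.64 CPM (−0.71 ± 0.42, edgeR adjusted p = 0.196), and without i4F-Nes replicate 2 its fold change was −2.14 (adjusted p = 0.00271). Max (0.02 ± 0.10), Mxd1 (0.14 ± 0.30), Mxd4 (0.06 ± 0.16), Mnt (−0.09 ± 0.19) and Mxi1 (0.12 ± 0.16) did not pass.

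**Figure D3:**
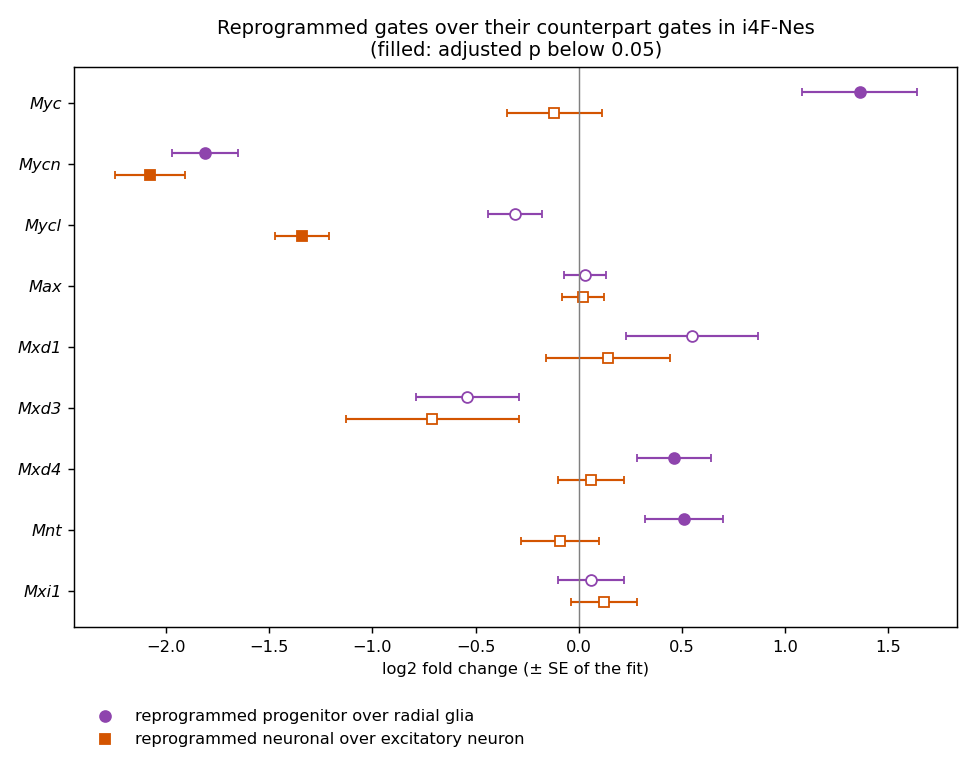
Log2 fold change of each member (x axis) in the 2 reprogrammed gates over their counterpart gates within the i4F-Nes libraries, with bars for ± 1 SE of the fit and filled symbols where edgeR's adjusted p is below 0.05. Mycn is at −1.81 and −2.08, Mycl at −0.31 and −1.34, and Myc at 1.36 and −0.12.

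Between the genotypes no member passed in any gate, in fits of all 4 libraries without the replicate number as a block. Over all kept cells edgeR's test called 405 of 18556 genes (2.18%), all of them higher in i4F-Nes, and 0 of 9 members (0 with an unadjusted p under 0.05, and 0 with DESeq2). Without the cells of the reprogrammed gates, an alternative chosen after seeing the data, 0 genes were called. In the radial glia gate it called 0% of 13490 genes, with 606 at an unadjusted p under 0.05 and 20 with DESeq2. In the intermediate progenitor gate it called 1 of 12591 genes (0.00794%), and in the excitatory gate 0% of 16729, with 350 at an unadjusted p under 0.05 and 27 with DESeq2. Members called were 0 of 9 in each gate, with DESeq2 as with edgeR.

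Over all kept cells Mycn was at 89.8 and 65.6 CPM in i4F-Nes and 126 and 92.3 CPM in CTR, without overlap (−0.49 ± 0.22, edgeR adjusted p = 0.477). The excitatory gate, where Mycn was highest on average, made up a smaller share of the i4F-Nes libraries, as given above. The reprogrammed gates, nearly absent from CTR, held Mycn at only 20.7 to 28.4 CPM. Ungated cells were 2.28% of i4F-Nes replicate 1 but 17.6% of replicate 2, where their median depth was 2661 UMIs. Their share was 3.49% in CTR replicate 1 and 8.37% in CTR replicate 2. How much the excitatory share and the ungated cells contributed to the level was not tested. Over 11 alternatives, among them the fit without the cells of the reprogrammed gates, the fold change of Mycn ran from −0.74 to −0.23. Mycl over all kept cells was at 51.0 and 33.6 CPM in i4F-Nes and 69.0 and 48.4 CPM in CTR, with overlap (−0.47 ± 0.27, edgeR adjusted p = 0.604). With the replicate number as a block, Mycn (−0.49) and Mycl (−0.48) did pass, each with an edgeR adjusted p of 0.0228. No label says what the replicate numbers pair. In tissue sums, fewer cells of a type and less RNA per cell cannot be told apart. In radial glia Mycn was at 101 and 71.3 CPM in i4F-Nes and 157 and 80.0 CPM in CTR (−0.48 ± 0.30, edgeR adjusted p = 0.969), with overlap. The fold change was 0.06 without CTR replicate 1, and at −0.87 (adjusted p = 0.00825) without CTR replicate 2. Myc, a factor of the induced cassette, stood at 3.19 and 3.22 CPM in i4F-Nes radial glia, between the 7.58 and 2.76 CPM of CTR (−0.77 ± 0.46, edgeR adjusted p = 0.969; 0.16 without CTR replicate 1). The 6 neuron markers in this gate summed to 324 and 356 CPM in i4F-Nes and 522 and 213 CPM in CTR, highest in the library with the most Myc, and their part in its level was not tested. Mycl was at 26.1 and 16.7 CPM in i4F-Nes and 31.3 and 26.8 CPM in CTR radial glia, without overlap (−0.45 ± 0.23, edgeR adjusted p = 0.969).

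Among the repressive partners, Mxd3 in intermediate progenitors had the lowest unadjusted p of the members between genotypes. It was at 16.1 and 24.2 CPM in i4F-Nes and 9.53 and 11.1 CPM in CTR, without overlap, from 141 and 88 UMIs against 87 and 45. The fold change of 0.93 ± 0.28 had an unadjusted p of 0.00748 and did not pass over all genes (edgeR adjusted p = 0.901), and in the fit without i4F-Nes replicate 1 it was 1.25 (adjusted p = 0.0100). The share of mitotic cells in that gate was 16.9% and 27.6% in i4F-Nes and 10.9% and 14.2% in CTR. Its part in the level of Mxd3 was not tested. Within the mitotic cells of the gate Mxd3 was at 67.5 and 67.8 CPM in i4F-Nes and 59.8 and 56.2 CPM in CTR, and within its other cells at no more than 0.902 CPM in any library. In excitatory neurons all 9 fold changes lay between −0.25 and −0.01. The difference of the i4F-Nes response between radial glia and excitatory neurons was tested as an interaction. It passed for 0 of 16621 genes (396 at an unadjusted p under 0.05, and 0 with DESeq2), and for the members it ran from −0.46 ± 0.36 (Myc) to 0.28 ± 0.22 (Mxi1).

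**Figure D4:**
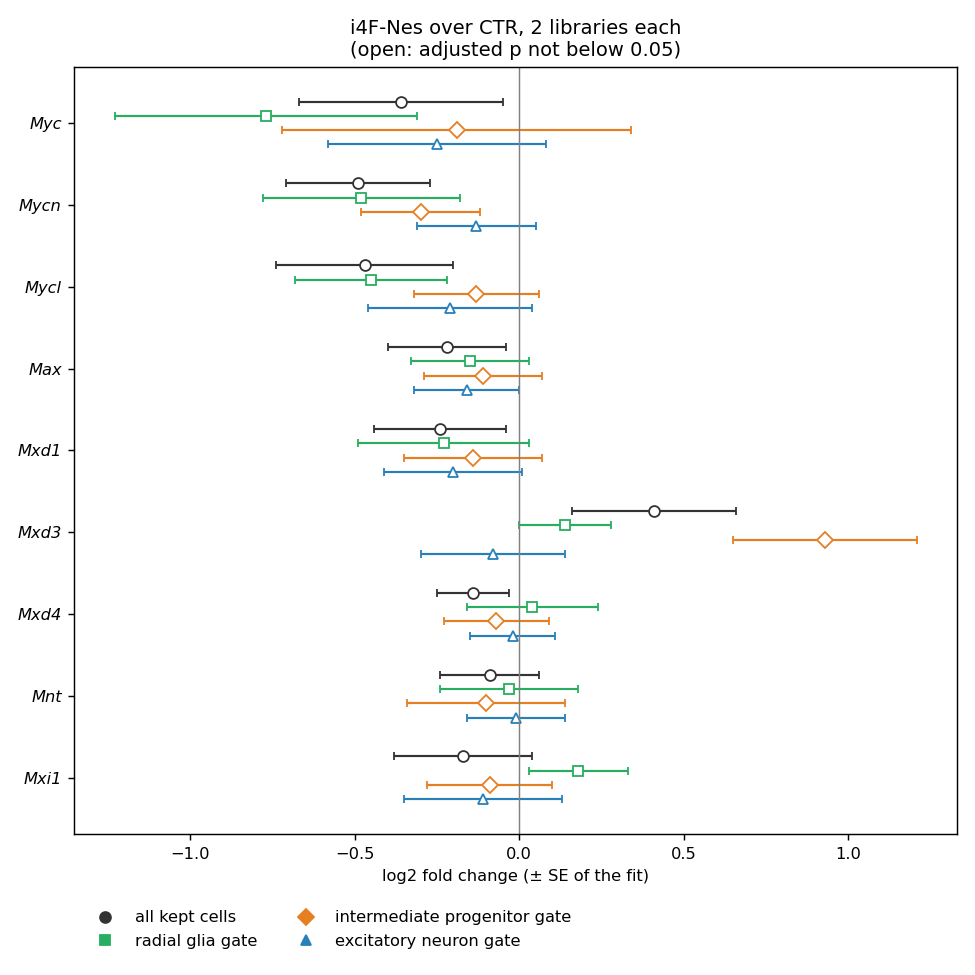
Log2 fold change of each member in i4F-Nes over CTR (x axis, 2 libraries per group) over all kept cells and in 3 gates, with bars for ± 1 SE of the fit. All symbols are open because none passed edgeR's test; Mxd3 in intermediate progenitors is farthest above 0, at 0.93, and Myc in radial glia farthest below, at −0.77.

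Genes that Myc is known to activate were read from a list of 40, mostly of ribosome production, nucleotide synthesis and translation. In radial glia against excitatory neurons 29 of 40 were higher and 3 lower, where 34.4% of all genes were called in each direction, with a median of 0.42 against −0.03 over all genes, while Myc itself was lower in radial glia. Tmem97, a sterol-linked membrane protein (3.12 ± 0.13), the ribosome assembly factor Rrs1 (0.79 ± 0.08), the mitochondrial chaperonin Hspe1 (0.83 ± 0.08) and the pyrimidine synthesis enzyme Cad (1.40 ± 0.15) were the higher genes with the smallest adjusted p, and Nme1 (−0.53 ± 0.11), Bop1 (−0.46 ± 0.10) and Eif4a1 (−0.21 ± 0.09) were lower. In reprogrammed progenitors against radial glia, where Myc was higher and Mycn lower, 1 of 40 was higher (Npm1, 0.44 ± 0.16) and 10 were lower, among them Srm, of spermidine synthesis (−0.81 ± 0.20). Of all genes 19.4% were called higher and 19.3% lower there, and the median of the list was −0.11 against −0.03 over all genes. In reprogrammed neuronal cells against excitatory neurons 0 were higher and 25 lower, where 19.1% and 20.5% of all genes were, with a median of −0.57 against −0.07 over all genes, and those with the smallest adjusted p were Dctpp1 (−1.33 ± 0.17), Nme1 (−1.16 ± 0.16), Ppan (−1.09 ± 0.16) and Nop56 (−0.93 ± 0.13). In intermediate progenitors against radial glia 1 was higher (Cdk4, 0.33 ± 0.08) and 24 were lower, where 19.2% of all genes were called higher and 26.5% lower, with a median of −0.32 against −0.08 over all genes. Between genotypes 0 of 40 passed in any gate; in radial glia 36 of 40 had negative values, with a median of −0.22 against 0.00 over all genes. In excitatory neurons 34 of 40 were negative, with a median of −0.10 against 0.00, and in intermediate progenitors 20 of 40 were, with a median of 0.00 against −0.01.

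**Figure D5:**
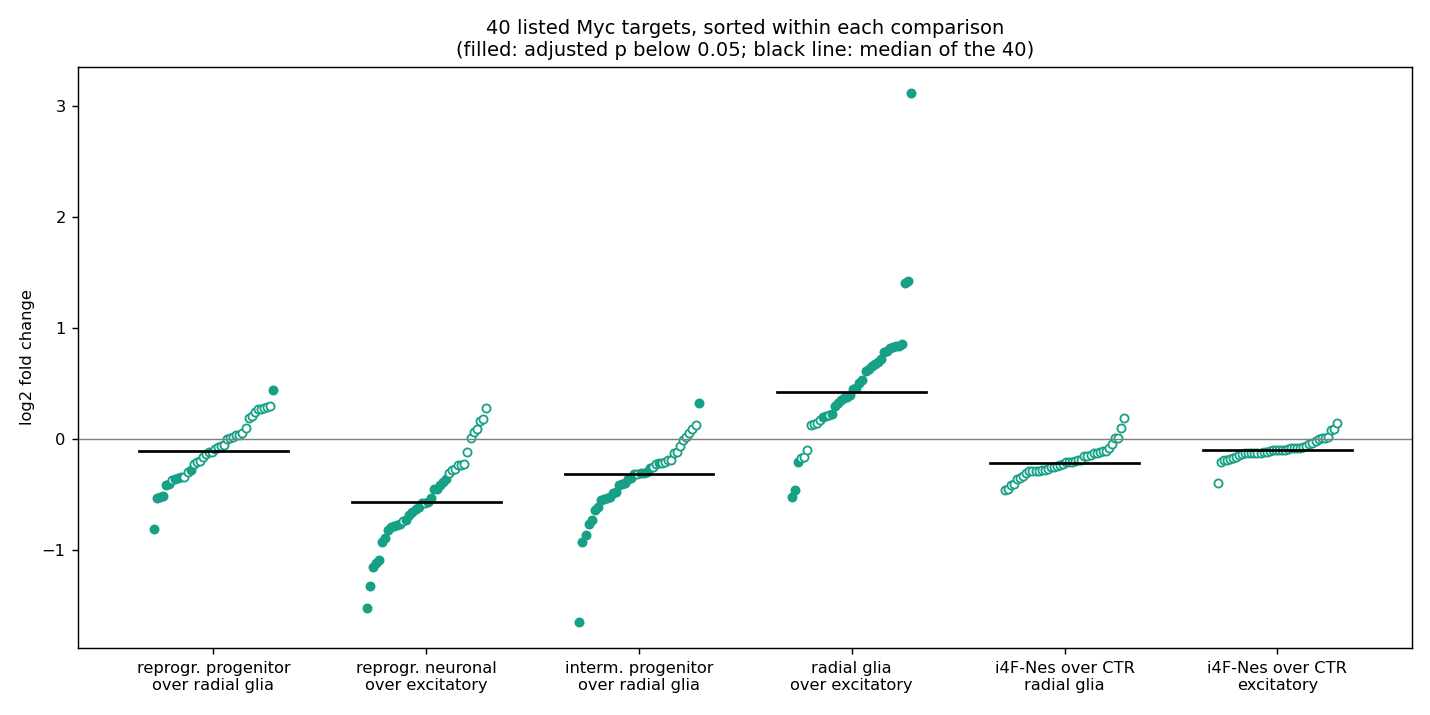
Log2 fold changes of the 40 listed Myc targets (y axis), sorted within each of 6 comparisons (x axis), filled where edgeR's adjusted p is below 0.05, with a line at their median. The medians are −0.11, −0.57, −0.32, 0.42, −0.22 and −0.10 in the order shown, and no target is filled in the 2 comparisons of i4F-Nes with CTR.

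Of 4 further genes of the extended Max network, 3 rose in reprogrammed progenitors against radial glia, where 19.4% of all genes were called higher. They were the Max-like partner Mlx (0.90 ± 0.18), the glucose-responsive Mlxipl (1.34 ± 0.45) and its relative Mlxip (0.64 ± 0.23). In reprogrammed neuronal cells against excitatory neurons Mlxipl was higher (3.09 ± 0.59) and Mlxip lower (−0.80 ± 0.23), where 19.1% and 20.5% of all genes were. In radial glia against excitatory neurons Mlxipl was higher (2.79 ± 0.40) and Mlx (−1.45 ± 0.12), Mlxip (−1.12 ± 0.16) and Mga (−0.33 ± 0.09) were lower. Of 20 cofactors and turnover factors of Myc, 12 were higher and 5 lower in radial glia than in excitatory neurons, where 68.8% of all genes were called, 34.4% in each direction. The phosphatase inhibitor Cip2a (3.26 ± 0.13), the kinase Aurka (3.97 ± 0.18) and the ubiquitin ligase subunit Skp2 (1.86 ± 0.13) were among those higher. In reprogrammed progenitors against radial glia 1 was higher and 6 lower (19.4% and 19.3% of all genes), with Pim1 (−1.01 ± 0.16), Usp28 (−0.61 ± 0.15), Cip2a (−0.65 ± 0.17) and Fbxw7 (−0.53 ± 0.15) first by adjusted p. Usp28 removes and Fbxw7 adds ubiquitin on Myc protein. In reprogrammed neuronal cells against excitatory neurons 2 cofactors were higher and 4 lower (19.1% and 20.5% of all genes), with Hdac1 (0.95 ± 0.12) higher and Usp28 (−0.88 ± 0.17) lower. Between genotypes 0 of 4 and 0 of 20 passed in every gate tested.

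The genes whose levels ran most like each member were sought over 24 sums of gate and library among 9996 genes, by Pearson's r of log2(CPM + 1). These values describe the sums, which share libraries and depth and are not independent. Mxd3 was nearest to Aspm, Cdca2 and Depdc1b, all at r = 0.93. Mxd4 was nearest to Ypel3 (r = 0.93), Sdccag8 (r = 0.90) and Ypel5 (r = 0.89). Mycn was nearest to Acat2 (r = 0.93), Hnrnpdl (r = 0.92) and Smarcb1 (r = 0.90), Mycl to Fbxo44 and Efna2 (both r = 0.92) and Dipk1b (r = 0.90), and Myc to Tax1bp3 (r = 0.84), Ptp4a3 (r = 0.83) and Nr4a3 (r = 0.82). Max was nearest to Atf6b (r = 0.88), Mxd1 to Zfp65 (r = 0.85), Mnt to Zdhhc14 (r = 0.84) and Mxi1 to Trak2 (r = 0.84).

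Members were ranked by mean level over 6 gates of neural cells. The microglia gate of 29 to 47 cells a library and the undecided reprogrammed part were left out. That part held Myc at 14.2 to 19.2 CPM, Mycn at 22.6 to 27.6 CPM and Mycl at 29.6 to 34.4 CPM. Mxd3 decreased in the order radial glia, reprogrammed progenitor and intermediate progenitor gates, and neighbouring ranges in this order did not overlap. For Mycn the order was excitatory, radial glia, intermediate progenitor, interneuron, reprogrammed neuronal and reprogrammed progenitor gates, with overlap between the first 2, between intermediate progenitors and interneurons, and between the 2 reprogrammed gates. Myc ran from 12.8 to 22.7 CPM in excitatory neurons, 11.996 to 16.2 CPM in reprogrammed neuronal cells, 5.03 to 16.8 CPM in interneurons, 7.40 to 8.996 CPM in reprogrammed progenitors, 2.76 to 7.58 CPM in radial glia and 1.24 to 3.29 CPM in intermediate progenitors, each overlapping with the next. Max overlapped between all neighbouring gates, from 51.0 to 68.2 CPM in excitatory neurons to 43.6 and 54.6 CPM in reprogrammed progenitors. In the microglia gate Max was at 62.0 to 80.8 CPM and Myc at 5.64 to 39.8 CPM, from 11 to 25 and 1 to 9 UMIs a library, both with means above those of the 6 neural gates and with ranges that overlapped with excitatory neurons.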

How the data were processed

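The deposited matrices hold UMI counts per gene and cell barcode, which the authors made with cellranger 7.0.1 per the file headers, against mm10 per the submitters' processing notes. Barcodes with at least 1000 UMIs, at least 500 genes and at most 10% mitochondrial UMIs were kept, and Scrublet in scanpy 1.11.5 removed 0.8% doublets per 1000 deposited barcodes. This left 26641 of 35255 barcodes. UMIs were summed per library and gate and tested with edgeR 4.0.16 in R 4.3.3 (quasi-likelihood F-test, TMM scaling, filterByExpr, Benjamini-Hochberg over all genes tested, threshold 0.05). Gate comparisons used 1 fit over all gates with at least 20 cells in a library, with the library as a block (the mitotic split 1 fit over the split progenitor gates and the excitatory gate), so n counts libraries and never cells. DESeq2 1.42.0 and other settings were alternatives. The comparisons of intermediate progenitors and of mitotic cells were added after seeing the data. On simulated counts most of the larger changes were recovered, but the share of false calls exceeded the nominal level when each gene had its own dispersion, and in some runs with a common trend, so calls near the threshold are uncertain. The members, marker genes and lists were chosen with earlier results of these data known. All 9 members are named, and of each list at most 4 called genes per direction by smallest adjusted p.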

Additional observations from a re-analysis of the deposited data

How the results depend on the processing

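Of the 24 called values of members, 242 of 264 alternative values kept direction and call, 22 lost the call and 0 changed sign. Of the 66 values not called, 650 of 726 stayed so with their sign, 12 passed the threshold and 64 changed sign; the cause was not tested. Genes called over all kept cells numbered 1160 with DESeq2, 802 without the filter on low counts, 616 without doublet removal and 0 without the reprogrammed cells, against 405, and 537 to 779 when 1 library was left out. In i4F-Nes against CTR radial glia there were 20 with DESeq2, 115 without the filter and 3 to 264 with 1 library left out, in intermediate progenitors 10, 116 and 2 to 299, and in excitatory neurons 27, 1 and 2 to 31. Members called were 0 to 1 in radial glia and 0 to 1 in intermediate progenitors when 1 library was left out. The interaction called 65 genes without the filter and 0 to 10 with 1 library left out. Leaving out 1 library gave 3585 to 6305 genes and 2 to 3 members in reprogrammed progenitors against radial glia, with the fewest genes without i4F-Nes replicate 1, and 4317 to 6646 genes in reprogrammed neuronal cells against excitatory neurons, also with the fewest without i4F-Nes replicate 1. It gave 1854 to 2785 genes in the mitotic split, with the fewest again without i4F-Nes replicate 1. Without the library block there were 2 members in reprogrammed progenitors and 1537 genes in the mitotic split.

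The replicate numbers are shared between the groups, but no label says what they pair, and 2 pairs are too few to establish it. Deviations of same-numbered libraries correlated at 0.51 over all kept cells, 0.52 in radial glia, 0.54 in intermediate progenitors and 0.76 in excitatory neurons. With the replicate block 1284 genes were called over all kept cells, 36 in radial glia, 74 in intermediate progenitors and 274 in excitatory neurons. The block called 2 members over all kept cells, Mycn (−0.49, edgeR adjusted p = 0.0228) and Mycl (−0.48, edgeR adjusted p = 0.0228).

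Signs changed under these settings, all for values not called. Stricter gates gave 0.00 for Mnt in radial glia and 0.12 for Myc in intermediate progenitors (i4F-Nes against CTR), and −0.03 for the interaction of Max. Library totals gave 0.02 for Mxd4 and 0.03 for Mnt in excitatory neurons (i4F-Nes against CTR), −0.01 for Max in reprogrammed progenitors, and 0.04 for Myc and 0.07 for Mnt in reprogrammed neuronal cells. Keeping doublets gave −0.01 for Max in reprogrammed neuronal cells and −0.03 for its interaction, no filter gave 0.01 for the interaction of Mnt, and no library block gave 0.01 for Mxd1 in the mitotic split.

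With 1 library left out, the following values that were not called changed sign, and each is given from its lowest to its highest. In i4F-Nes against CTR over all kept cells, Mnt ran from −0.21 to 0.02, Mxi1 from −0.43 to 0.06 and Myc from −0.68 to 0.10. In i4F-Nes against CTR radial glia, Myc ran from −1.25 to 0.16, Mycn from −0.87 to 0.06, Max from −0.30 to 0.02, Mxd4 from −0.14 to 0.20 and Mnt from −0.14 to 0.10. In i4F-Nes against CTR intermediate progenitors, Mycl ran from −0.40 to 0.07, Mxd4 from −0.20 to 0.04, Mnt from −0.32 to 0.06, Mxi1 from −0.36 to 0.13, Myc from −0.59 to 0.78, Max from −0.26 to 0.10 and Mxd1 from −0.24 to 0.01. In i4F-Nes against CTR excitatory neurons, Mycn ran from −0.33 to 0.04, Mycl from −0.50 to 0.08, Mxd3 from −0.27 to 0.14, Mxd4 from −0.14 to 0.09, Mnt from −0.15 to 0.11, Mxi1 from −0.42 to 0.15, Myc from −0.60 to 0.23 and Max from −0.31 to 0.01. In reprogrammed progenitors against radial glia, Mxi1 ran from −0.05 to 0.21. In reprogrammed neuronal cells against excitatory neurons, Myc ran from −0.51 to 0.34, Max from −0.02 to 0.13, Mxd3 from −2.14 to 0.17, Mnt from −0.34 to 0.21 and Mxi1 from −0.01 to 0.33. In the interaction, Mxd1 ran from −0.17 to 0.10, Mnt from −0.11 to 0.10, Mxd4 from −0.16 to 0.27 and Mycn from −0.59 to 0.03. In the mitotic split of radial glia, Mycn ran from −0.13 to 0.04, Mycl from −0.12 to 0.13, Mxd1 from −0.23 to 0.37 and Mnt from −0.30 to 0.13.

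Low counts limit Myc in radial glia and intermediate progenitors and Mxd3 outside mitotic cells, and 2 libraries per group limit every comparison of genotypes.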
